A study of Mus musculus with 30 samples.

Results

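The metabotropic glutamate receptor genes described here were Grm5, Grm2, Grm3, Grm4, Grm7 and Grm8. They were taken by name, as 6 of the 23303 entries of one table of expression values, by a rule that uses no measured value, although earlier results of these data were known when they were chosen. The levels come from mRNA sequencing of amygdala tissue and whole blood of male C57BL/6J mice aged 2 to 3 months. The home cage group (HC) was handled and not trained, the fear conditioning group (FC) received tone and footshock pairings, and the group Immo+FC was restrained by immobilization on an earlier day and then conditioned like FC. There were 6 HC, 6 FC and 4 Immo+FC amygdala libraries, and 4, 5 and 5 blood libraries in the same order. Each library came from a pool of mice, so the spread between libraries is one between pools and understates that between animals. No group was immobilized without conditioning, so an effect of immobilization alone cannot be told apart from its effect on conditioned mice. The punches were centred on the basolateral nucleus and could take in neighbouring regions.

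Metabotropic glutamate receptors are G protein-coupled receptors that adjust transmission at glutamate synapses over longer times than the glutamate-gated ion channels. Group I receptors, here Grm5, couple to Gq and phospholipase C, release calcium through inositol trisphosphate receptors, sit mainly at the edge of the postsynaptic membrane and are tied there to Homer scaffolds. In the lateral amygdala the Grm5 receptor is known for its part in the acquisition of conditioned fear. Group II (Grm2, Grm3) and group III (Grm4, Grm7, Grm8) receptors couple to Gi/o, lower cyclic AMP and mostly act as presynaptic brakes on release. Grm3 is also made by astrocytes.

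The 6 genes lie on 5 mouse chromosomes (GRCm38, GENCODE models). Grm5 spans chr7:87584168-88134907 on the plus strand, Grm2 chr9:106643095-106656082 and Grm3 chr5:9485541-9725170 on the minus strand. Grm4 spans chr17:27422387-27521403 and Grm8 chr6:27275119-28135178, both on the minus strand, and Grm7 spans chr6:110645581-111567230 on the plus strand. Gene lengths ran from 12988 bases for Grm2 to 921650 bases for Grm7, while the longest annotated transcript ran from 3049 bases for Grm3 to 8047 bases for Grm5. Antisense transcripts are annotated across an end of Grm2 and of Grm7, and neither has a value of its own in the table. The sources used here do not say that the kit kept strand, so reads of such partners cannot be told apart from those of the receptor gene.

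RefSeq promoter windows (GRCm38.p6) matched 4 of the 6 members, namely Grm2, Grm3, Grm7 and Grm8. The windows of the group II pair are shown because these close relatives had similar levels and fitted FC against HC differences of opposite sign. Neither difference passed the adjusted threshold, and the genes were not tested against each other. Each line gives the 250 bases before the annotated start on the gene's own strand, at chr9:106656110-106656359 for Grm2 and chr5:9725353-9725602 for Grm3. Capitals mark the GC box letters GGGCGG, searched on both strands.
Grm2: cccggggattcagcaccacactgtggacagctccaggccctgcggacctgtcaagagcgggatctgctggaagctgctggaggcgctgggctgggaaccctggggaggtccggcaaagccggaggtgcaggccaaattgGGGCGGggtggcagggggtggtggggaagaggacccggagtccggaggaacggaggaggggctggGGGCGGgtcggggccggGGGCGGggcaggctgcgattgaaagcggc
Grm3: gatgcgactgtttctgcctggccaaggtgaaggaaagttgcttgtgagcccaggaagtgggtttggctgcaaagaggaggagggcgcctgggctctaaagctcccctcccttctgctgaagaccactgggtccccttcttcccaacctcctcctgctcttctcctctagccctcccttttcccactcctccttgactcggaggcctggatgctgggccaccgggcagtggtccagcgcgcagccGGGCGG
The Grm2 window held 3 GC boxes that did not overlap one another and had a GC content of 71.2%, and the Grm3 window held 1 and had a GC content of 62.4%. GC boxes stood in 32.7% of 32851 windows of the same length, whose median GC content was 52.4%. The core letters of the cyclic AMP response element, TGACG on either strand, were in neither window, against 17.8% of all windows. A match or its absence describes the letters of the window only.

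Amygdala libraries held 23148078 to 31366290 sequences in the deposited statistics, with 91.3% to 92.3% mapped uniquely. Blood libraries held 9081977 to 25892322 sequences, with 60.1% to 72.6%. The unit is FPKM, fragments per kilobase of transcript scaled to the mapped fragments of the library, which allows for transcript length, so levels can be set side by side between genes. The amygdala libraries fell into separate sets by a long-transcript score, the mean centred log2 level of 324 tested genes whose longest transcript exceeds 10000 bases, members left out. The score was -0.32 to -0.09 in 9 libraries (all 6 FC, HC 1 and 2, Immo+FC 1) and 0.21 to 0.26 in the other 7 (HC 3 to 6, Immo+FC 2 to 4). Choroid plexus markers, a sign of tissue taken in from the ventricle wall, also varied widely, with summed levels of 2.75 to 1056 FPKM in HC, 3.34 to 911 in FC and 113 to 964 in Immo+FC (7 of 7 markers measured). All 10 amygdala and all 6 neuron markers were above the test's minimum in the amygdala libraries. So were all 8 striatum, all 6 cerebral cortex and claustrum, and 6 of 7 thalamus and habenula markers. In blood, 5 of 6 neuron markers were above it too. Passing this minimum therefore does not show which region the tissue came from.

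All 6 receptors were expressed in the amygdala, and Grm5 stood above the rest. Over the 16 amygdala libraries Grm5 had a mean of 27.6 FPKM, higher than 83.0% of the 13508 genes tested. Grm7 followed with 13.4 FPKM, then Grm2 with 12.0, Grm3 with 9.52, Grm8 with 5.90 and Grm4 with 3.4 FPKM. The lowest Grm5 library, at 22.6 FPKM, exceeded the highest Grm7 library, at 15.9 FPKM. The ranges of all other neighbours in this order overlapped, although Grm8 was above Grm4 in 16 of 16 libraries, Grm2 above Grm3 in 14 and Grm7 above Grm2 in 13. Grm6, the receptor of ON bipolar cells of the retina, was listed at 0 in 13 of 16 libraries and reached at most 0.00891 FPKM.

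The genes differed in how closely libraries of a group repeated one another. Within groups the coefficient of variation was 4.49% to 11.1% for Grm5 and 5.61% to 12.0% for Grm7, against 19.9% to 24% for Grm4. It was 13% to 17.4% for Grm2, 10.5% to 21.3% for Grm8 and 7.47% to 14.8% for Grm3. The summed level of the 6 genes was alike in the groups, 72.3 ± 5.28 FPKM in HC, 70.6 ± 5.39 in FC (both SD, n = 6) and 72.6 ± 6.78 in Immo+FC (SD, n = 4), and Grm5 made up a median of 40.8%, 35.7% and 39.9% of it.

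**Figure D1:**
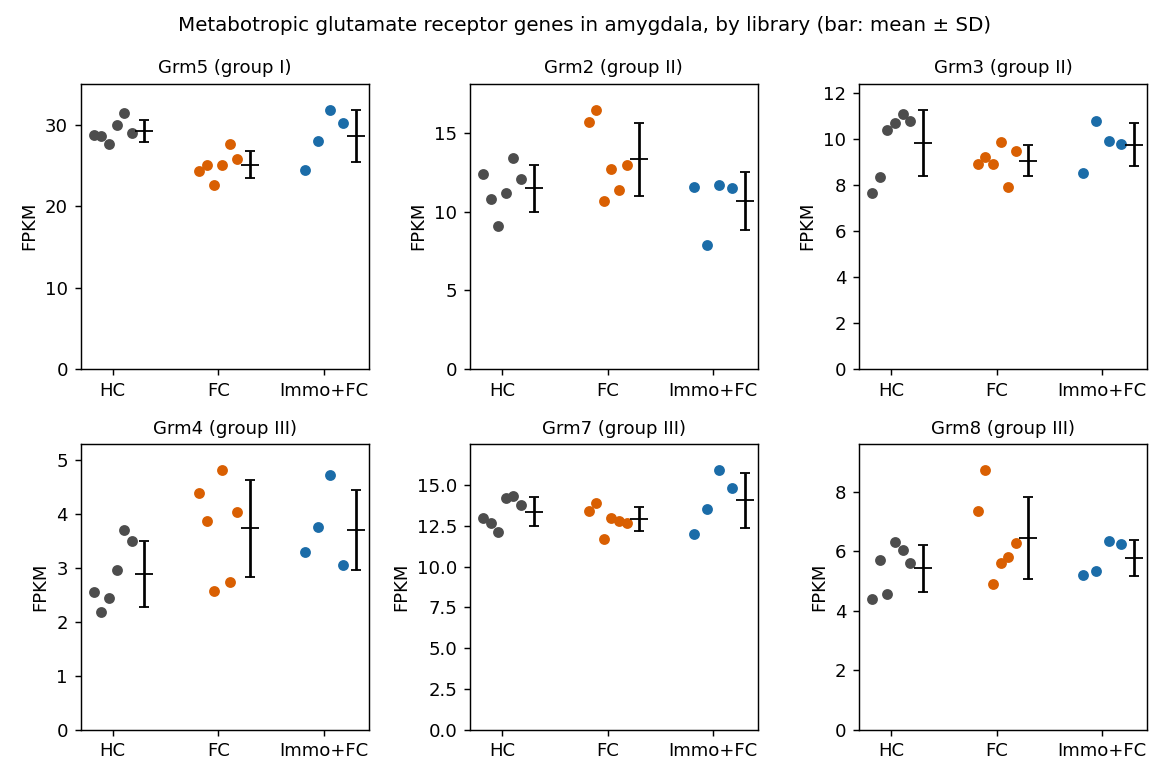
FPKM of the 6 receptor genes in each amygdala library, by group; points are libraries and the bar beside each group is its mean ± SD (n = 6, 6 and 4), with every axis starting at 0. Grm5 in FC lies between 22.6 and 27.7 FPKM, with 5 of 6 libraries below the lowest HC library, and for Grm4 4 of 6 FC libraries lie above the HC range.

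The comparison of FC with HC asks what differs shortly after training from the level at rest. None of the 6 receptors passed the threshold, a limma p of 0.05 after Benjamini-Hochberg adjustment over all 13508 genes, which 0.0148% of genes passed. An unadjusted p under 0.05 was reached by 2 of the 6, Grm5, with a lower mean in FC, and Grm4, with a higher one. Of all genes, 6.48% reached it with a lower and 6.59% with a higher value in FC. Grm2 and Grm8 also had higher means in FC, and the fitted difference was smallest for Grm7. With bulk tissue, fewer cells of a type and less RNA per cell cannot be told apart.

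Grm5 measured 27.7 to 31.5 FPKM in HC, with a median of 28.9. In FC it measured 22.6 to 27.7 FPKM, with a median of 25.1. Of the 6 FC libraries 5 lay below the whole HC range, and the remaining one lay just above the lowest HC library. The fitted log2 difference was -0.22 ± 0.06 (SE; 95% interval -0.35 to -0.10), a fold of 0.858, with an adjusted p of 0.117 and rank 195 of 13508 by p. An unadjusted p under 0.05 with a lower value in FC was reached by 6.48% of all genes, and groups that did not overlap at all were found for 1.39%.

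The Grm5 difference depended on how libraries were treated. With limma's array weights, which count libraries that fit the model poorly for less, it was -0.22 and passed at an adjusted p of 0.0189, a setting under which 500 genes passed in place of 2. Without Immo+FC replicate 1, which enters the shared estimate of spread only, the difference was the same and the adjusted p was 0.049. Dropping that library lowered p for other genes too. Before adjustment, 1104 genes with lower values in FC fell below 0.05, in place of 875. For genes with higher values in FC the count was 1024, in place of 890. Entering the score as a covariate gave a Grm5 difference of -0.10 at an adjusted p of 0.463. Among the 9 libraries of low score, Grm5 was 28.6 and 28.8 FPKM in the HC libraries, above all 6 FC libraries. All FC libraries have low scores, so the group and the score are partly confounded.

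**Figure D2:**
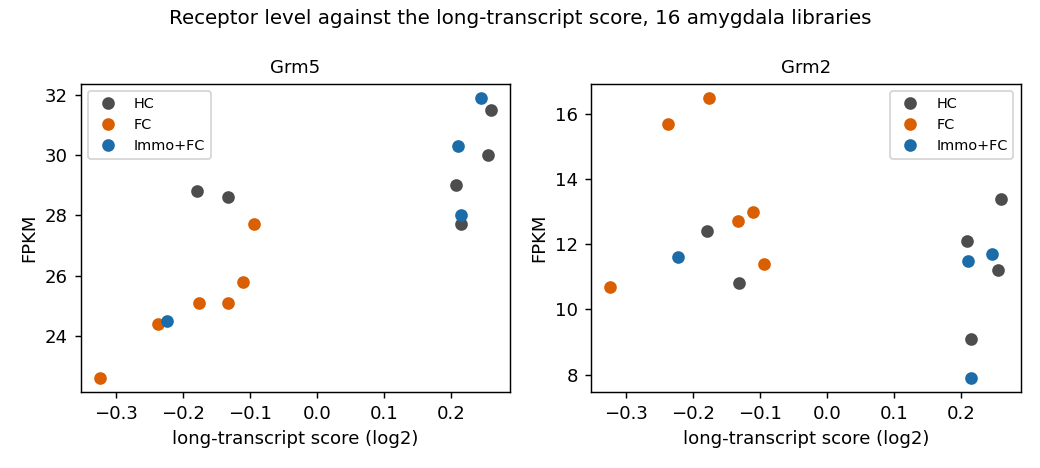
FPKM of Grm5 (left) and Grm2 (right) against the long-transcript score (log2 scale) in 16 amygdala libraries, coloured by group. The libraries form a low-score set of 9 and a high-score set of 7; in the low set both HC libraries lie above the 6 FC libraries for Grm5, and Grm2 shows no such order.

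Of group II, Grm2 encodes a presynaptic autoreceptor. It measured 9.10 to 13.4 FPKM in HC (median 11.7) and 10.7 to 16.5 in FC (median 12.9). Only 2 FC libraries exceeded the HC range, and the log2 difference was 0.20 ± 0.12 (95% interval -0.05 to 0.46; adjusted p 0.503). Grm3 measured 7.64 to 11.1 FPKM in HC (median 10.6) and 7.90 to 9.88 in FC (median 9.07). Its FC range lay inside the HC range, where HC 1 and 2, the low-score libraries, were the lowest at 7.64 and 8.36 FPKM. The log2 difference of Grm3 was -0.11 ± 0.09 (95% interval -0.30 to 0.08; adjusted p 0.662), and with the score as a covariate it turned to 0.11. Without HC 1 and 2 it was -0.25 at an adjusted p of 0.0714, and without HC 1 alone -0.18 at an adjusted p of 0.321. Without HC 1 and 2 all HC libraries left had high scores and all FC libraries low ones, so group and score could not be told apart.

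Of group III, Grm4 had the largest fitted difference of the 6 genes and also wide spread. It measured 2.18 to 3.69 FPKM in HC (median 2.75) and 2.57 to 4.80 in FC (median 3.94), with 4 of 6 FC libraries above the HC range. The log2 difference was 0.35 ± 0.16 (95% interval 0.0019 to 0.69; adjusted p 0.378), and 6.59% of all genes had an unadjusted p under 0.05 in this direction. With the score as a covariate the Grm4 difference was 0.58 at an adjusted p of 0.231, and without HC 1 and 2 it was 0.22 at an adjusted p of 0.617. The last of these fits sets only high-score HC libraries against low-score FC libraries. Grm8, a presynaptic receptor with high glutamate affinity, measured 4.39 to 6.31 FPKM in HC (median 5.65) and 4.91 to 8.72 in FC (median 6.04). The highest FC libraries were replicates 1 and 2, at 7.34 and 8.72 FPKM, as they were for Grm2, at 15.7 and 16.5. These are also the FC libraries with the lowest choroid plexus marker sums, 3.62 and 3.34 FPKM against 86.5 to 911 in FC 3 to 6, where Grm2 was 10.7 to 13 and Grm8 4.91 to 6.28 FPKM. In HC 4 to 6, whose choroid plexus sums were as low (2.75 to 4.37 FPKM), Grm2 was 11.2 to 13.4 and Grm8 5.60 to 6.31 FPKM, and the part of choroid plexus tissue in the FC values was not tested. The log2 difference of Grm8 was 0.23 ± 0.12 (95% interval -0.03 to 0.49; adjusted p 0.441), 0.37 with the score as a covariate and 0.14 without FC replicate 2. Grm7, the low-affinity receptor of the presynaptic active zone, had a narrow interval, with 12.1 to 14.3 FPKM in HC, 11.7 to 13.9 in FC and a log2 difference of -0.05 ± 0.06 (95% interval -0.18 to 0.09; adjusted p 0.813).

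Marker sums were set beside each receptor within the score sets. Of 90 pairs of receptor and marker list, 10 had a Pearson r of at least 0.6 in size, with the same sign in both sets. The share that other genes would give by this rule was not computed, so the count is not read as unusual. The values are given for the 9 low-score and then the 7 high-score libraries, on the log2 scale. Choroid plexus markers had an r of -0.82 and -0.68 with Grm2, and of -0.76 and -0.32 with Grm8, which falls short in the high-score set. Inhibitory neuron markers (5 of 5 measured, none at 0) summed to 144 to 184 FPKM in HC, 149 to 214 in FC and 148 to 217 in Immo+FC. Their sum had an r of 0.69 and 0.65 with Grm2, 0.80 and 0.81 with Grm4, 0.67 and 0.79 with Grm7, and 0.64 and 0.63 with Grm8. Striatum markers (8 of 8 measured, none at 0) summed to 168 to 504 FPKM in HC, 175 to 537 in FC and 238 to 552 in Immo+FC, and their sum had an r of 0.76 and 0.90 with Grm4. Oligodendrocyte markers (6 of 6 measured, none at 0) summed to 717 to 891, 663 to 960 and 718 to 950 FPKM and had an r of 0.78 and 0.82 with Grm4. Thalamus and habenula markers (7 of 7 measured, none at 0) summed to 40.2 to 58.5, 40.7 to 66.2 and 37.8 to 62 FPKM in HC, FC and Immo+FC, with an r of 0.63 and 0.65 with Grm5. Markers of cerebral cortex and claustrum (6 of 6 measured, none at 0) summed to 122 to 147, 113 to 152 and 103 to 159 FPKM, with an r of -0.61 and -0.82 with Grm5 and of -0.63 and -0.70 with Grm7. Over all 16 libraries the r of Grm5 with thalamus and habenula markers was 0.09. With cerebral cortex and claustrum markers it was -0.35 for Grm5 and -0.45 for Grm7. It was 0.43 for Grm7 with inhibitory neuron markers and -0.54 for Grm2 with choroid plexus markers. The remaining pairs of the 10 had an r of 0.60 to 0.80. All these r values are descriptions over libraries that share groups, and the part of cell or tissue makeup in the receptor differences was not tested.

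The comparison of Immo+FC with FC asks whether earlier immobilization leaves conditioned mice with other levels. It shares the FC libraries with the comparison above, so the values of one are not independent of the other. No receptor passed the threshold, which 0.0222% of genes passed. Grm5 (higher in Immo+FC) and Grm2 (lower), 2 of the 6, had an unadjusted p under 0.05. So did 3.94% of all genes in the higher and 6.49% in the lower direction.

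Grm5 was 24.5, 28.0, 31.9 and 30.3 FPKM in Immo+FC replicates 1 to 4. Of these 3 lay above the whole FC range of 22.6 to 27.7 FPKM, and replicate 1, the low-score library, lay inside it. The log2 difference was 0.19 ± 0.07 (95% interval 0.05 to 0.33; adjusted p 0.327), with 3.94% of all genes at an unadjusted p under 0.05 and higher in Immo+FC. With the score as a covariate it was 0.07 at an adjusted p of 0.63, and without replicate 1 it was 0.26 at an adjusted p of 0.0497. Without replicate 1 all Immo+FC libraries had high scores and all FC libraries low ones, so group and score could not be told apart. In that fit 957 genes were higher at an unadjusted p under 0.05, in place of 532.

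Grm2 was 11.6, 7.89, 11.7 and 11.5 FPKM in Immo+FC replicates 1 to 4, against 10.7 to 16.5 in FC. All 4 lay below the FC mean of 13.3 FPKM, 1 of them below the whole FC range. The log2 difference was -0.32 ± 0.14 (95% interval -0.61 to -0.03; adjusted p 0.415), a fold of 0.801, with 6.49% of all genes at an unadjusted p under 0.05 and lower. It rested in large part on replicate 2, without which it was -0.18 at an adjusted p of 0.783. The choroid plexus sums of Immo+FC replicates 1 to 4 were 964, 749, 634 and 113 FPKM. The FC libraries of comparable sums (86.5 to 911 FPKM) had 10.7 to 13 FPKM of Grm2. The part of choroid plexus tissue in the Grm2 difference was not tested.

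The other members overlapped with FC and differed less. Grm3 was 8.52, 10.8, 9.92 and 9.77 FPKM in Immo+FC, 2 of them above the FC range, with a log2 difference of 0.10 ± 0.10 (adjusted p 0.763). Grm4 was 3.28, 3.76, 4.71 and 3.04 FPKM, all inside the FC range, with a difference of 0.01 ± 0.18 (95% interval -0.38 to 0.39). Grm7 was 12.0, 13.5, 15.9 and 14.8 FPKM, with a difference of 0.11 ± 0.07 (adjusted p 0.601). The Grm7 difference was -0.007 with the score as a covariate and 0.25 without replicates 1 and 2 (adjusted p 0.175). That last fit keeps only Immo+FC replicates 3 and 4, of high score, against low-score FC libraries, so group and score cannot be told apart. Grm8 was 5.19, 5.32, 6.36 and 6.24 FPKM, all below the FC mean of 6.44 FPKM, with a difference of -0.14 ± 0.14 (adjusted p 0.78), -0.28 with the score and -0.04 without FC replicate 2. Over all genes, groups that did not overlap were found for 2.28%, and for none of the receptors.

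Against HC, the fitted difference in Immo+FC was largest for Grm4 among the 6 receptors. No member passed the threshold, which 0.2% of genes passed, and none had groups that did not overlap, which held for 2.57% of all genes. Grm4 was above the HC mean of 2.88 FPKM in 4 of 4 Immo+FC libraries, with a log2 difference of 0.35 ± 0.18 (95% interval -0.03 to 0.74; adjusted p 0.434). It was 0.225 without HC 1 and 2 and 0.233 without Immo+FC replicate 3. Grm5 differed by -0.03 ± 0.07 (95% interval -0.17 to 0.11), Grm3 by -0.0018 ± 0.10 (95% interval -0.21 to 0.21) and Grm2 by -0.12 ± 0.14 (95% interval -0.40 to 0.17). Grm7 and Grm8 differed by 0.07 ± 0.07 and 0.09 ± 0.14. Unadjusted p values under 0.05 were reached by 5.34% of genes in the higher and 7.73% in the lower direction, and by none of the receptors.

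**Figure D3:**
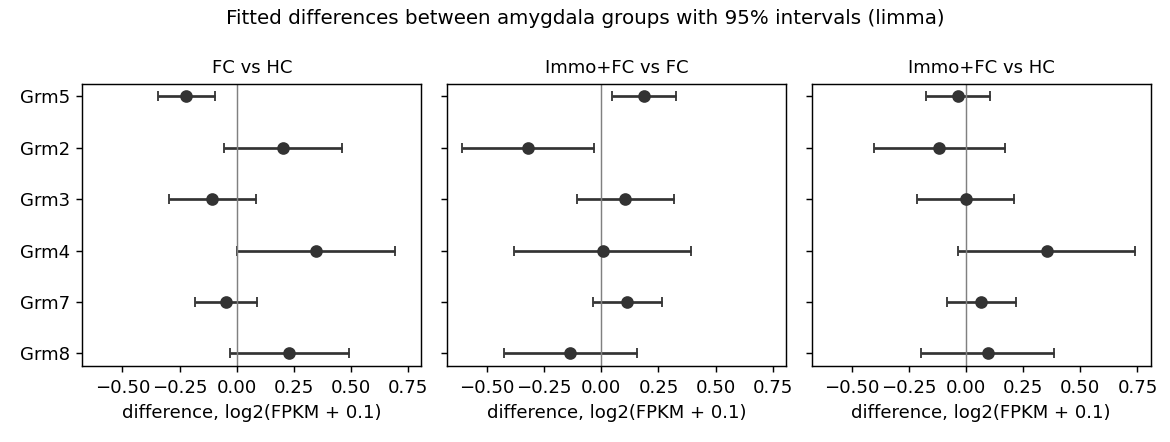
Fitted differences of the 6 receptor genes on the log2(FPKM + 0.1) scale with 95% intervals, for FC vs HC, Immo+FC vs FC and Immo+FC vs HC in amygdala (limma, intervals per gene and not adjusted for the number of genes). The interval of Grm5 lies below 0 in the first panel and above 0 in the second, that of Grm2 lies below 0 in the second, and none of the 6 passed the adjusted threshold.

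Ratios between receptors of one library do not depend on the scaling of that library. They do not remove an effect tied to transcript length, and the longest Grm5 transcript is 8047 bases against 4711 for Grm2. All 6 FC libraries and Immo+FC 1 had low long-transcript scores, so group and score are partly confounded in the ratios too. Grm5 exceeded Grm2 by 2.31 to 3.05 times in HC, with a mean of 2.57 ± 0.278 (SD, n = 6), and by 1.52 to 2.43 times in FC, with a mean of 1.93 ± 0.348 (SD, n = 6). In Immo+FC the ratio was 2.11 to 3.55, with a mean of 2.76 ± 0.595 (SD, n = 4), and replicate 1 was again the lowest. The ratio of Grm2 to Grm3 was 1.20 ± 0.256, 1.47 ± 0.247 and 1.11 ± 0.269 in HC, FC and Immo+FC. The ratio of Grm7 to Grm8 was 2.49 ± 0.282, 2.06 ± 0.308 and 2.43 ± 0.107 in the same order. These ratios were chosen after the levels were seen and were not tested, and in all 3 the ranges of neighbouring groups overlapped.

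**Figure D4:**
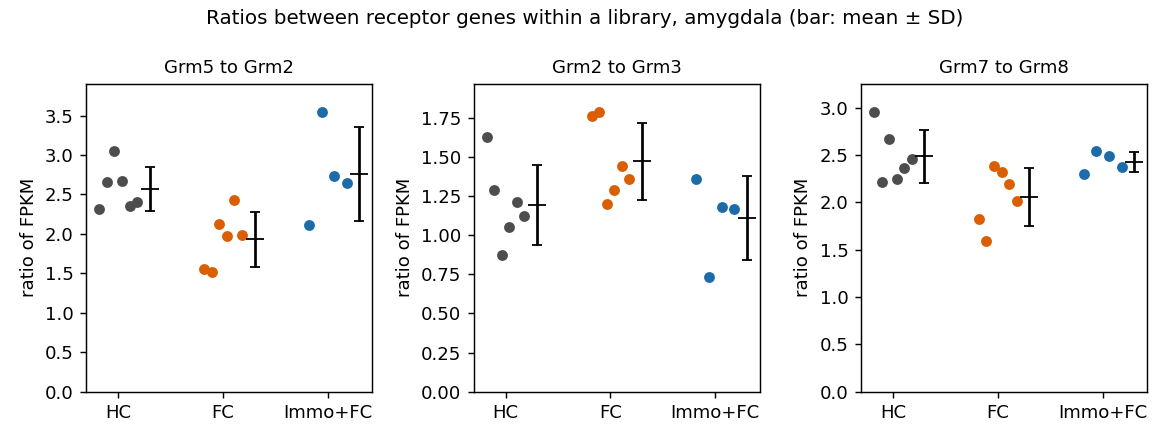
Ratios of FPKM between receptor genes within each amygdala library, by group, with group mean ± SD (n = 6, 6 and 4) and axes from 0. The Grm5 to Grm2 ratio lies between 1.52 and 2.43 in FC and between 2.31 and 3.05 in HC, so the groups overlap slightly.

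The signalling partners of the receptors were read from lists, given by counts beside the median of all genes tested. None of the 19 genes of the group I and Gq list, the 21 of the group II and III and Gi/o list or the 11 tested of the glutamate supply and uptake list passed the threshold in any comparison. In FC against HC the median log2 differences of the lists were 0.02, 0.009 and 0.012, against 0.015 over all genes, with 1, 1 and 2 genes at an unadjusted p under 0.05 and higher, and 3, 1 and 0 lower. In all genes the shares were 6.59% higher and 6.48% lower. In Immo+FC against FC the medians were -0.058, -0.069 and 0.004, against -0.023, with 3, 0 and 1 genes higher and 3, 3 and 0 lower, and the shares of all genes were 3.94% and 6.49%. In Immo+FC against HC they were -0.038, -0.055 and -0.007, against -0.012, with 1, 0 and 3 higher and 1, 3 and 0 lower, and shares of all genes of 5.34% and 7.73%.

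Among the group I partners, Homer1, which encodes the scaffold that binds Grm5 and a short activity-induced form, measured 20.1 to 31.8 FPKM in HC, 29.1 to 40.5 in FC and 29.9 to 44.2 in Immo+FC. Its log2 difference was 0.39 ± 0.12 in FC against HC (adjusted p 0.147) and 0.52 ± 0.13 in Immo+FC against HC (adjusted p 0.106), and the table gives no value for the short form alone. Trpc5, a cation channel opened downstream of Gq, measured 2.60 to 4.80 FPKM in HC and 1.51 to 2.98 in FC, a difference of -0.69 ± 0.19 (adjusted p 0.128). Itpr1, the inositol trisphosphate receptor that releases stored calcium, measured 18.9 to 30 FPKM in FC and 30.9 to 46.2 in Immo+FC. These groups did not overlap, as held for 2.28% of all genes, and the difference was 0.75 ± 0.20 (adjusted p 0.191). Against HC, Itpr1 differed by -0.50 ± 0.18 in FC (adjusted p 0.232) and by 0.26 ± 0.20 in Immo+FC (adjusted p 0.638). Its longest transcript, at 9870 bases, is just under the limit of the long-transcript score, and the part of transcript length was not tested.

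Among the group II and III partners, the adenylyl cyclases Adcy1 and Adcy3, which make cyclic AMP, differed by -0.26 ± 0.09 and 0.12 ± 0.05 in FC against HC (adjusted p 0.217 and 0.328). The longest Adcy1 transcript, at 12259 bases, is one of those in the long-transcript score. In Immo+FC against FC, Elfn1, a synaptic adhesion protein that recruits group III receptors, differed by -0.30 ± 0.10 (adjusted p 0.315) and Prkaca, the catalytic subunit of protein kinase A, by -0.10 ± 0.04 (adjusted p 0.342). In Immo+FC against HC, the cyclase Adcy8 differed by -0.35 ± 0.13 (adjusted p 0.249) and the inhibitory G protein subunit Gnai1 by -0.15 ± 0.06 (adjusted p 0.295).

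Among the genes of glutamate supply, Glul, the glutamine synthetase of astrocytes, and Slc38a2, a glutamine transporter, differed by 0.13 ± 0.05 and 0.16 ± 0.07 in FC against HC (adjusted p 0.268 and 0.34). In Immo+FC against HC they differed by 0.13 ± 0.06 and 0.28 ± 0.08 (adjusted p 0.327 and 0.141), and Slc38a2 ran from 13.9 to 16.8 FPKM in HC and from 16.7 to 20.5 in Immo+FC. In Immo+FC against FC, the cystine and glutamate exchanger gene Slc7a11 differed by 0.20 ± 0.09 (adjusted p 0.467) and Folh1, which frees glutamate from N-acetylaspartylglutamate, by 0.17 ± 0.10 (adjusted p 0.559). Grm6 was too low to be tested.

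**Figure D5:**
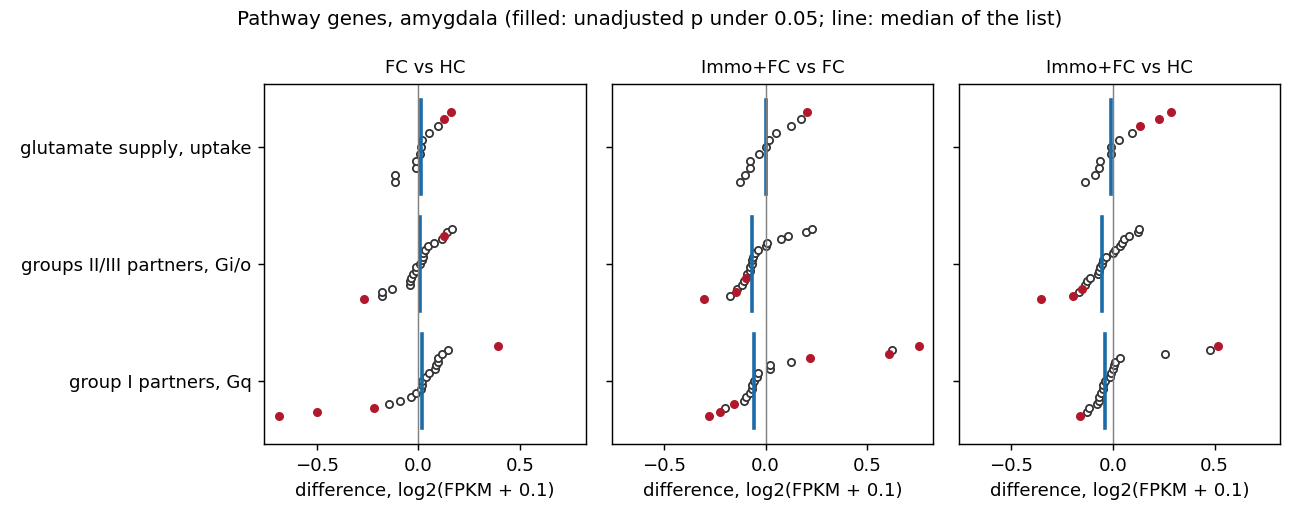
Fitted differences of the tested genes of 3 pathway lists in amygdala, on the log2(FPKM + 0.1) scale, for the 3 comparisons; each point is a gene, filled where the unadjusted p is under 0.05, and the vertical line is the median of the list. The medians lie between -0.07 and 0.02, and no gene passed the adjusted threshold.

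The genes whose levels followed each receptor most closely over the 16 amygdala libraries were ranked by Pearson r, given as a description with no p, since the libraries share groups, score sets and tissue makeup. For Grm5 these were Amer1 (r = 0.93), Rapgef6 (0.92) and Zc3h12b (0.92), with r of 0.93, 0.89 and 0.89 in the low-score set and 0.55, 0.74 and 0.62 in the high-score set. For Grm2 they were Slc25a22, a mitochondrial glutamate carrier (r = 0.90), Rspo2, a marker of basolateral amygdala neurons (0.89), and Klhl2 (0.88). These kept an r of 0.79 to 0.96 within the sets. Rspo2 belongs to the 10 amygdala markers, whose sum had a lower r with Grm2, 0.47 (0.37 and 0.21 within the sets). For Grm3 the closest genes included Utrn and Rxfp1 (0.91 and 0.90). Their r was 0.79 and 0.68 in the low-score set and 0.21 and 0.89 in the high-score set.

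For Grm4 the closest genes were Kazn, Chst15 and Slc10a4 (r = 0.91, 0.90 and 0.89), which kept an r of 0.82 to 0.98 within the sets. For Grm8 they were Cyp26b1, a retinoic acid-degrading enzyme fixed here among the amygdala markers (0.90), Garnl3 (0.87) and Man2a1 (0.86). The sum of the amygdala markers had an r of only 0.33 with Grm8 (0.48 and 0.16 within the sets). For Grm7 the closest genes were Itgbl1, Rab3c and Trim2 (0.88, 0.87 and 0.87). Between members, Grm2 and Grm8 had an r of 0.68, Grm5 and Grm7 of 0.71, and Grm5 and Grm2 of -0.22. Of these pairs, Grm2 and Grm8 had r of 0.81 and 0.67 within the sets, whereas Grm5 and Grm7 had 0.28 and 0.88, and Grm5 and Grm2 -0.20 and 0.79.

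In blood the receptors served as background and none reached the mean of 0.5 FPKM needed for a test. Grm5 had the highest single value, 0.393 FPKM, and measured 0.338, 0.109, 0.185 and 0.393 FPKM in HC replicates 1 to 4. In FC blood it was 0.0546, 0, 0.0286, 0.0153 and 0.0674 FPKM, and in Immo+FC blood 0.0146, 0.122, 0.0827, 0.143 and 0.0173 FPKM. Neuron markers (6 of 6 measured, none at 0) summed to 8.99 to 35.7 FPKM in HC blood, 1.15 to 11.4 in FC blood and 1.24 to 10.1 in Immo+FC blood, and their part in the Grm5 values was not tested. Grm2 and Grm3 were each listed at 0 in 8 of 14 blood libraries, Grm7 and Grm8 in 7 and Grm4 in 6. Amygdala and blood were normalised separately by the authors, so no test was made between them. Grm6 was listed above 0 in all 14 blood libraries, at 0.0922 to 0.548 FPKM.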

How the data were processed

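Amygdala and blood RNA of pooled mice was sequenced as TruSeq libraries. Per the labels' processing notes the authors aligned reads with STAR 2.3 to mm10 and made FPKM values with Cufflinks 2.1.1 and Cuffdiff 2.1.1, and per the paper's methods each tissue was processed separately. The deposited table holds FPKM for 23303 entries in 30 libraries, 272 of them merged gene names. A deposited table of sequencing statistics gives the total read count and the percent of reads mapped uniquely, used for depth only. FPKM keeps no read counts here, so no interval for counting error was given.

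Differences were fitted with limma 3.58.1 (R 4.3.3) on log2(FPKM + 0.1), leaving out genes whose mean in the tissue was under 0.5 FPKM, with a trend in the variance, the 3 groups of a tissue in 1 fit, and Benjamini-Hochberg adjustment over all genes (two-sided, threshold 0.05). Fold changes are on this scale and understate those of low genes. The script was tested on simulated data. Samples were grouped by their GEO labels. Alternatives were 2 pseudocounts, no filter, median-ratio and quantile scaling, fits of the 2 groups compared, array weights, the replicate number as a block, the long-transcript score as a covariate and fits without libraries. Transcript lengths came from GENCODE vM21 and covered 98.1% of genes tested.

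All 6 members were named, with Grm6, the 2 pathway genes of the smallest p per list and comparison where none of the list passed (up to 4 otherwise), and the 3 genes most correlated with each member. The members and lists were chosen with earlier results of these data known. Labels name separate samples and pools, so p values measure the spread between pools. Some genes that this rule selects are not reported here. Protein sequences and promoters of Grm4 and Grm5 were not used here.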

Additional observations from a re-analysis of the deposited data

Results flagged for a closer look

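A single library lay far from the rest of its group in 7 of the 42 groups of 4 to 6 libraries examined for the receptor genes, Grm6 included, by a gap-to-range test (Dixon's 95% limit). In 5 of the 7 only 1 library was listed above 0, so the gap spanned the whole range and the chance rate of about 1 in 20, which holds for continuous values, does not apply to them. In amygdala, Grm2 in Immo+FC was flagged for replicate 2, at 7.89 FPKM against 11.5 to 11.7 FPKM in the other 3 libraries. The remaining cases were levels near 0. Grm6 was listed above 0 in 1 library of each amygdala group, at 0.00891 FPKM (HC), 0.00794 (FC) and 0.00875 (Immo+FC replicate 4). In blood, the highest libraries were Grm3 in Immo+FC at 0.0589 FPKM, Grm4 in FC at 0.209 FPKM and Grm4 in Immo+FC at 0.0492 FPKM, where 4, 2 and 4 of 5 libraries were listed at 0.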

How the results depend on the processing

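Of the 18 receptor differences in amygdala, those of Grm5 and Grm2 in FC against HC and in Immo+FC against FC, and of Grm4 and Grm8 in FC against HC, kept their direction under every alternative run. The count of receptors past the threshold was 0 in each comparison and became 1 (Grm5) in FC against HC with array weights, and 0 to 1 when replicates were left out, in FC against HC and in Immo+FC against FC, each time without Immo+FC replicate 1. Small differences turned in sign. Grm3 in Immo+FC against HC became 0.012 with median-ratio scaling, 0.006 with quantile normalization, 0.009 with array weights, 0.025 with the replicate block and 0.017 without Immo+FC libraries 1 and 2, and -0.071 to 0.061 with a replicate left out. Grm4 in Immo+FC against FC became -0.02 with quantile normalization, -0.016 with array weights and -0.234 with the long-transcript score, and -0.114 to 0.091 with a replicate left out. Grm5 in Immo+FC against HC became 0.002 with the block, 0.089 without Immo+FC libraries 1 and 2 and -0.086 to 0.04 with a replicate left out, and Grm2 there 0.019 without those libraries and -0.182 to 0.021. With the score, Grm3 became 0.113 and Grm7 0.072 in FC against HC, and -0.121 and -0.007 in Immo+FC against FC. The cause was not tested. The counts of all genes past the threshold (2 in FC against HC, 3 in Immo+FC against FC, 27 in Immo+FC against HC) moved widely. They became 1 and 6 in the first and last without a filter, 67 and 0 in the second and last with only the 2 groups compared, 500, 171 and 16 with array weights, 160, 62 and 0 with the replicate block, and 1 in the first with the score. They became 357, 121 and 2 without HC libraries 1 and 2, and 1 and 0 in the second and last without Immo+FC libraries 1 and 2. With a replicate left out they ran from 1 to 143, 1 to 144 and 0 to 148. Group and score could not be told apart in FC against HC without HC libraries 1 and 2. The same held in Immo+FC against FC without Immo+FC replicate 1, and without Immo+FC libraries 1 and 2. Genes at an unadjusted p under 0.05 in Immo+FC against FC were 532 higher and 877 lower, and 692 and 543 after median-ratio scaling. Same-numbered libraries did not deviate together (median r -0.0345, from -0.257 to 0.31; 3 of 14 pairs over 0.1), so the numbers were not taken as pairs. In blood no receptor reached the level needed for a test, and depth limits what those values show.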
